A study of Mus musculus with 6 samples.

Results

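The growth hormone and insulin-like growth factor axis was followed through 10 genes in mouse liver, taken by name and by their Ensembl identifiers from all 6 libraries of the series. The 10 members are Ghr, Stat5b, Socs2, Cish, Igf1, Igfals, Igfbp1, Igfbp2, Igfbp3 and Igfbp4, out of 55487 genes in the count tables. All 10 passed the filter on low counts and were among the 13498 genes tested. The livers came from 8-week-old male mice on standard chow, 3 animals named SCADD, of the inbred substrain BALB_cByJ, and 3 named WT, of the substrain BALB_cJ. SCADD stands for deficiency in short-chain acyl-CoA dehydrogenase, which takes the first step in breaking down short-chain fatty acids in mitochondria, and the question set by the design is how the liver transcriptome differs under that deficiency. The WT animals are not littermates of the SCADD animals but another substrain, so the enzyme defect and every other substrain variant cannot be told apart. Each library was made from poly(A) RNA of a frozen piece of liver and holds all cell types of the organ.

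Growth hormone from the pituitary binds its receptor on hepatocytes, the receptor-bound kinase JAK2 phosphorylates STAT5B, and STAT5B enters the nucleus and switches on target genes. Among these targets are Igf1, the main source of IGF1 in blood, Igfals, whose product holds IGF1 in a long-lived complex with IGFBP3, and the feedback inhibitors Socs2 and Cish. The IGF binding proteins carry IGF1 in plasma and limit its access to receptors, and hepatic Igfbp1 and Igfbp2 are known to be repressed by insulin and raised by fasting. In male rodents growth hormone is released in pulses, and STAT5B activity in the liver follows the pulses.

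The short palindrome TTCNNNGAA, the core that STAT5 dimers recognise, was looked for in RefSeq promoter windows of build GRCm38.p6, which reach from 250 bases before to 50 bases after an annotated start. Windows were found for 9 of the 10 members, 14 windows in all. Socs2 had none in the table and is named only. The palindrome reads the same on both strands, so a single search covers both. It was present in 3 windows of 2 members, Cish and Igfals, and in 8.30% of all 32851 windows. The Cish window held 2 copies, and 0.457% of all windows held at least 2. The windows shown were picked for holding a match. Cish and Igfals are among the targets named above, as is Igf1, whose window held no match. Capitals mark the matches. The Cish window is chr9:107296409-107296708 on the plus strand, and both of its matches lie in the last 50 bases, after the annotated start. The Igfals windows are chr17:24877594-24877893 and chr17:24877981-24878280, both on the plus strand, and belong to separate annotated starts. Their matches, TTCTCAGAA and TTCCTAGAA, begin 236 and 58 bases before those starts. A match describes the letters only, and no binding was measured in these libraries.
Cish: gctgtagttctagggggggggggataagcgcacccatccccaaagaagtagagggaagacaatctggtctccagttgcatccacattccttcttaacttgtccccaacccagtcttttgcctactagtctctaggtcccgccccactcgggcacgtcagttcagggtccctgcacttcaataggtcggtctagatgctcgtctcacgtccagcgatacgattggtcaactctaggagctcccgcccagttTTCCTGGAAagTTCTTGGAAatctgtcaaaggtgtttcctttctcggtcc
Igfals, upstream start: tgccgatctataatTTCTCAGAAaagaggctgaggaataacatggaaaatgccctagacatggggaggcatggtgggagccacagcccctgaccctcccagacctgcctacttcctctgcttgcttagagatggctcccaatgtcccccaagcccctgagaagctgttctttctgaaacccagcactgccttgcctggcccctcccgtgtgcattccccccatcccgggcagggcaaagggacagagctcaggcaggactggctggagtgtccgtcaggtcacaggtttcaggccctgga
Igfals, downstream start: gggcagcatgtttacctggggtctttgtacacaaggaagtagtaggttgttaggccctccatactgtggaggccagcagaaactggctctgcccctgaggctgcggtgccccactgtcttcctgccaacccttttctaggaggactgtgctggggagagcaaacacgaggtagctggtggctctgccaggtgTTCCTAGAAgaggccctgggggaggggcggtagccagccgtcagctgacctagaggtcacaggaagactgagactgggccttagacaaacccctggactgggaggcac

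Reads counted in genes totalled 16948986 to 23912744 per SCADD library and 23991104 to 27148756 per WT library. Unmapped reads made up 25.1% to 36.6% of reads in SCADD libraries and 13.6% to 16.4% in WT libraries, and SCADD replicate 3 had the highest share and the lowest gene total. The part of this difference in the results below was not tested, and values without a library are given where they change the call of a gene named here. The 7 hepatocyte markers (Alb, Ttr, Apoa1, Tat, Cyp2e1, Hnf4a and Serpina1a) summed to 92191 to 133385 CPM in SCADD and 100302 to 150557 CPM in WT livers. Most of this sum was Alb, at 79586 to 117365 CPM in SCADD and 86355 to 135287 CPM in WT. Of the 7, 0 passed the edgeR test, against 7.02% of all tested genes. Hnf4a alone had an unadjusted p under 0.05, against 22.7% of all tested genes. Hnf4a and Cyp2e1 were higher in SCADD without overlap, against 14.9% of all tested genes, and 0 were lower without overlap, against 13.1%.

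None of the 10 members differed between SCADD and WT livers by edgeR's quasi-likelihood test at a Benjamini-Hochberg adjusted p under 0.05, against 7.02% of all genes tested, 4.22% higher and 2.8% lower. At an unadjusted p under 0.05 there were 3 members, Igfbp3, Igfbp2 and Ghr, against 22.7% of all genes. DESeq2 called 2 members, Igfbp2 and Igfbp3, both lower in SCADD, against 9.56% of genes by that tool, and limma-voom called 0 members against 6.83%. Without SCADD replicate 3 edgeR called 1 member lower, Igfbp2, and without WT replicate 1 it called 1, Igfbp3. The SCADD and WT values did not overlap for 3 members, Ghr on the higher side and Igf1 and Igfbp2 on the lower side, against 14.9% of all tested genes on the higher side, 13.1% on the lower side and 28% in either direction, so the share of members is near the background. Fitted log2 fold changes, SCADD over WT, were below 0 for 8 members and above 0 for 2. Over all tested genes 6763 lay below 0 and 6735 above. The median of the members was -0.22, against -0.00078 over all tested genes. For Stat5b, Socs2, Cish, Igfals and Igfbp4 the sign changed in at least 1 fit that left out a library. In whole liver, fewer cells of a type and less RNA per cell cannot be told apart.

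**Figure D1:**
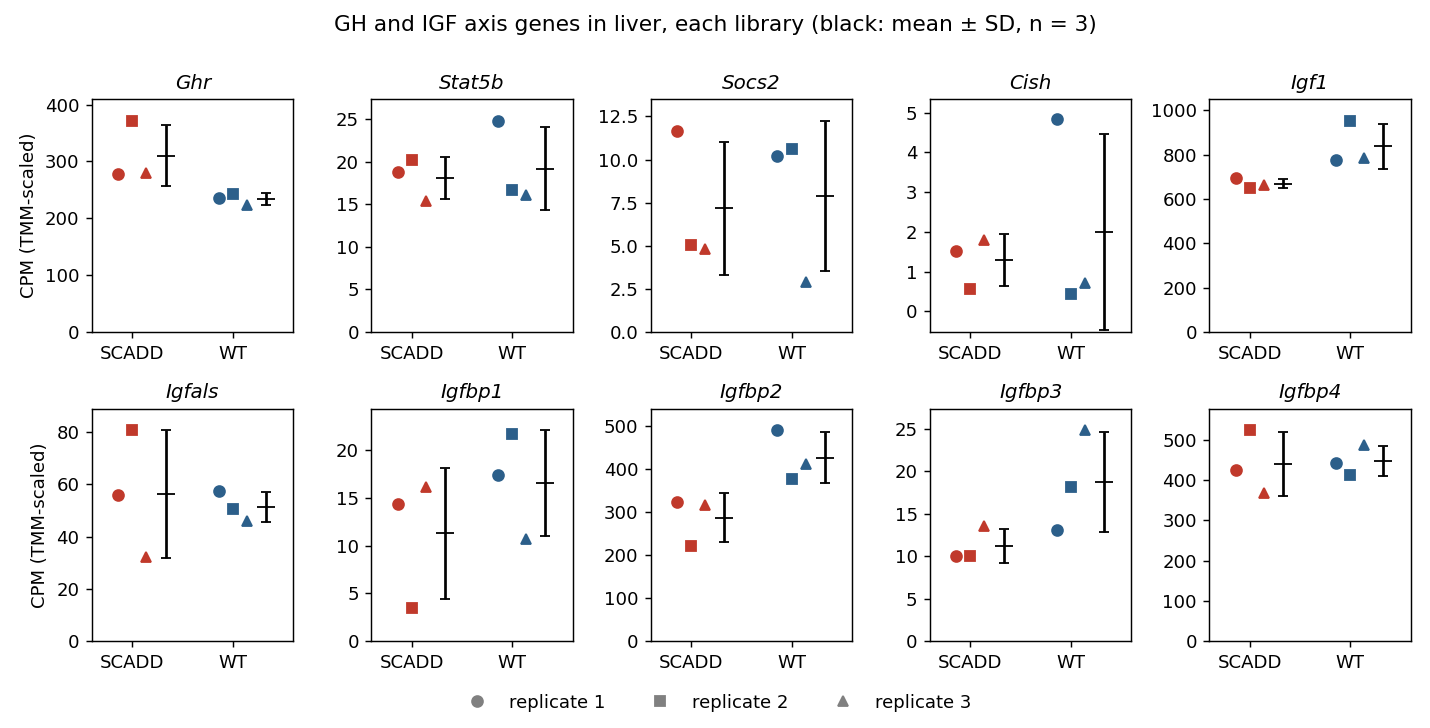
Level of each of the 10 genes in CPM (counts scaled to library size with TMM factors) in the 3 SCADD (left, red) and 3 WT (right, blue) libraries, each panel on its own linear axis, with the mean and SD in black. The groups stand apart for Ghr, Igf1 and Igfbp2, while Socs2, Cish and Igfbp1 spread widely within each group.

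Ghr encodes the growth hormone receptor and lies on chromosome 15 from 3317760 to 3583492 on the minus strand of GRCm38. Its level, in CPM (counts scaled to library size, with TMM factors), was 278, 372 and 280 in SCADD replicates 1, 2 and 3, and 235, 244 and 223 CPM in WT replicates 1, 2 and 3. Each SCADD library was above each WT library, and SCADD replicate 2 was the highest. The means were 310 ± 53.7 CPM in SCADD and 234 ± 10.5 CPM in WT (SD, n = 3 each). It gave a log2 fold change of 0.41 (SE 0.16, 95% interval 0.05 to 0.76, not adjusted for the number of genes), and the edgeR adjusted p was 0.159. Over all alternatives the adjusted p of Ghr had a lowest value of 0.0597, reached without SCADD replicate 3, and its log2 fold change lay between 0.25 and 0.48.

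Stat5b, the transcription factor that carries most of the growth hormone signal in liver, lies on chromosome 11 from 100780731 to 100850724. It had 18.8, 20.2 and 15.4 CPM in SCADD libraries and 24.8, 16.7 and 16.1 CPM in WT libraries. The ranges overlapped, and WT replicate 1 was the highest of the 6 libraries. The log2 fold change was -0.08 (SE 0.19, 95% interval -0.49 to 0.33, edgeR adjusted p = 0.842), so these data bound a difference in Stat5b mRNA at 0.710-fold to 1.26-fold. The near relative Stat5a is its neighbour on the chromosome, and reads from stretches that both share may have been left out or divided.

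The feedback genes Socs2 and Cish, whose products damp signalling from the receptor, varied more between animals of 1 group than between the groups. Socs2 (chromosome 10, 95385362 to 95417180) had 11.6, 5.05 and 4.84 CPM in SCADD livers and 10.2, 10.6 and 2.89 CPM in WT livers. Each group thus held both low and high animals. Cish (chromosome 9, 107296026 to 107302784), the gene with the paired palindromes shown above, had 1.51, 0.566 and 1.80 CPM in SCADD livers and 4.85, 0.437 and 0.713 CPM in WT livers. These values rest on 37, 12 and 29 reads in SCADD libraries and 134, 10 and 19 reads in WT libraries, and WT replicate 1 alone stood high, 11.1 times the lowest WT library. The log2 fold change of Socs2 was -0.12 (SE 0.57, 95% interval -1.51 to 1.27, edgeR adjusted p = 0.937). That of Cish was -0.67 (SE 0.98, 95% interval -3.07 to 1.73, edgeR adjusted p = 0.749), and it was 1.12 (adjusted p = 0.246) without WT replicate 1, so its sign rests on that library. Neither gene had a stable direction: without SCADD replicate 2 or 3 or WT replicate 1 or 2 the log2 fold change of Socs2 was 0.08 to 0.14.

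The within-group spread set these genes apart in a measure that uses no group difference. The pooled within-group SD of log2 CPM was 1.35 for Cish, 0.94 for Igfbp1 and 0.89 for Socs2, at percentiles 99.8, 99.2 and 98.9 of the 13498 tested genes, whose median was 0.23. Igfals stood at percentile 89.4 with 0.49. At the other end, Igf1 had a within-group SD of 0.12, at percentile 14.8. Cish is the member with the fewest reads, and Igfbp1 and Socs2 had at least 73 reads in every library. Bcl6, a repressor whose liver mRNA growth hormone is known to lower, was chosen after its values were seen. It had 7.63, 13.3 and 3.16 CPM in SCADD livers and 1.88, 21.3 and 18.4 CPM in WT livers, with its lowest value in WT replicate 1, the library with the highest Cish. Its log2 fold change was -0.77 (SE 0.90, edgeR adjusted p = 0.682).

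Igf1, the hormone itself and the most abundant member, lies on chromosome 10 from 87858265 to 87937042. It had 693, 651 and 663 CPM in SCADD livers and 775, 953 and 783 CPM in WT livers. Each SCADD library was below each WT library, and the 3 SCADD animals lay close together. The means were 669 ± 21.5 CPM in SCADD and 837 ± 101 CPM in WT (SD, n = 3 each), a fold of 0.799 (log2 -0.32, SE 0.16, 95% interval -0.67 to 0.03), and the edgeR adjusted p was 0.258. None of the alternatives called it, with adjusted p from 0.168 for DESeq2 upward. An antisense gene, Igf1os, overlaps its first part, and the stranded counts of Igf1 held 105546 reads against 134 on the opposite strand over the 6 libraries.

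Igfals encodes the acid-labile subunit, the partner of IGF1 and IGFBP3 in the large plasma complex, and carries the other palindromes shown above (chromosome 17, 24865997 to 24882010). It had 55.96, 80.8 and 32.2 CPM in SCADD livers and 57.4, 50.6 and 45.8 CPM in WT livers. The SCADD animals held both the highest and the lowest value, and the WT range lay between them. Its log2 fold change was 0.14 (SE 0.28, 95% interval -0.51 to 0.79, edgeR adjusted p = 0.828), and it was -0.22 without SCADD replicate 2 and 0.42 without SCADD replicate 3.

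**Figure D2:**
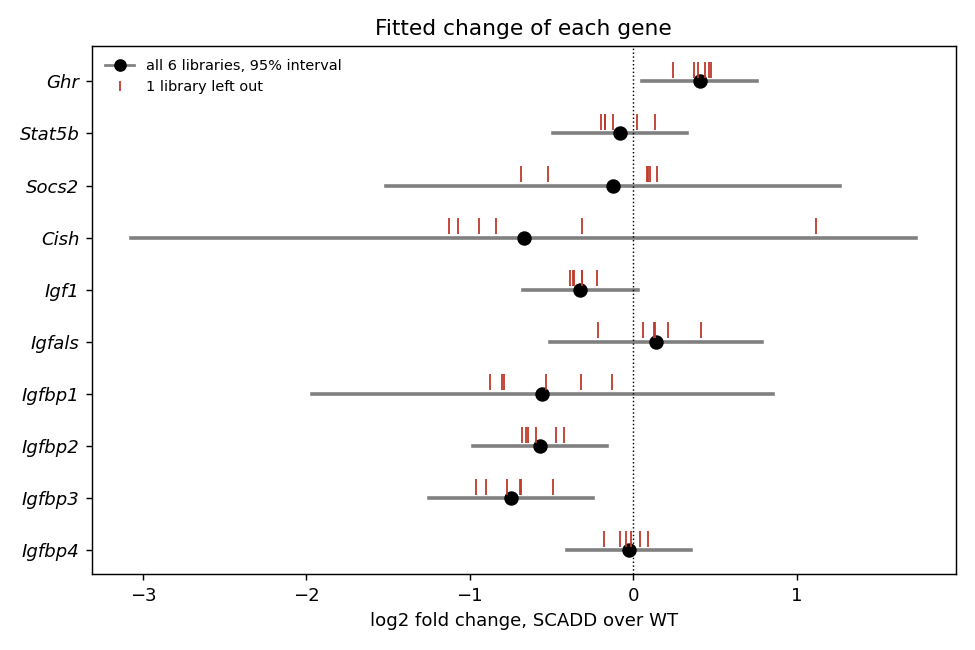
Fitted log2 fold change of each gene, SCADD over WT, on the x axis. Black points are fits on all 6 libraries with grey 95% intervals, and red ticks are fits with 1 library left out. The intervals of Ghr, Igfbp2 and Igfbp3 do not span 0 before adjustment over genes, while the ticks of Stat5b, Socs2, Cish, Igfals and Igfbp4 fall on both sides of 0.

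Igfbp2, the most abundant of the 4 binding protein transcripts in WT livers, lies on chromosome 1 from 72824503 to 72852474. It had 324, 222 and 317 CPM in SCADD livers and 492, 378 and 413 CPM in WT livers. All 3 SCADD libraries were below all 3 WT libraries. The means were 288 ± 56.7 CPM in SCADD and 427 ± 58.3 CPM in WT (SD, n = 3 each), a fold of 0.673 (log2 -0.57, SE 0.19, 95% interval -0.98 to -0.16), and the edgeR adjusted p was 0.0945. The adjusted p was 0.0347 by DESeq2 and 0.0442 without SCADD replicate 3, a fit that called 11.5% of genes, and it reached 0.236 without WT replicate 1, a fit that called 5.09%.

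Igfbp3, the main carrier of IGF1 in the circulation, lies on chromosome 11 from 7206086 to 7213923 on the minus strand. It had 10.03, 10.002 and 13.5 CPM in SCADD livers and 13.1, 18.2 and 24.9 CPM in WT livers. SCADD replicate 3 was above WT replicate 1, so the groups overlapped by these 2 libraries, and the other SCADD libraries were below all WT libraries. The means were 11.2 ± 2.02 CPM in SCADD and 18.7 ± 5.90 CPM in WT (SD, n = 3 each), a fold of 0.595. Fitted over all genes, the log2 fold change was -0.75 (SE 0.23, 95% interval -1.25 to -0.25), the smallest unadjusted p of the 10 members at 0.00745, with an edgeR adjusted p of 0.0759. The adjusted p was 0.0323 by DESeq2, 0.0225 without WT replicate 1 and 0.263 without WT replicate 3.

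In the rat, liver Igfbp3 mRNA is known to come mainly from non-parenchymal cells, so markers of such cells are given beside it. Of 7 endothelial markers (Pecam1, Kdr, Stab2, Clec4g, Lyve1, Cdh5 and Fcgr2b), all tested, 1 fell and 0 rose, where 2.8% of all tested genes fell. At an unadjusted p under 0.05 there were 4, against 22.7% of all genes, and 3 lay lower without overlap, against 13.1%. Their summed level was 136 to 220.2 CPM in SCADD and 219.9 to 255 CPM in WT livers, and none was at 0 counts. The fallen marker was Lyve1, a hyaluronan receptor, with 2.42 ± 0.167 CPM in SCADD and 6.42 ± 2.44 CPM in WT livers (SD, n = 3 each, edgeR adjusted p = 0.0152). Kupffer markers (6 tested, 0 called) summed to 142 to 258 CPM in SCADD and 183 to 254 CPM in WT, and stellate markers (7 tested, 0 called) to 296 to 538 CPM in SCADD and 369 to 498 CPM in WT. Cholangiocyte markers (3 of 5 tested, 0 called) summed to 28.8 to 41.1 CPM in SCADD and 44.7 to 52.1 CPM in WT. Lymphocyte markers (1 of 5 tested, 0 called) summed to 5.83 to 8.31 CPM in SCADD and 5.67 to 8.79 CPM in WT. In either direction 7.02% of all tested genes were called. The part of these cell types in the Igfbp3 values was not tested.

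Igfbp1, a binding protein under strong control by insulin, is the neighbour of Igfbp3 (chromosome 11, 7197782 to 7202546). Their 3′ ends face each other across 3539 bases. Igfbp1 had 14.4, 3.44 and 16.1 CPM in SCADD livers and 17.3, 21.6 and 10.7 CPM in WT livers. SCADD replicate 2 stood lowest, and the other SCADD libraries lay within the WT range. The log2 fold change was -0.56 (SE 0.57, 95% interval -1.97 to 0.86, edgeR adjusted p = 0.639) and -0.13 without SCADD replicate 2. Igfbp4, whose product inhibits IGF action in tissues, lies on the same chromosome from 99041244 to 99054392. It had 427, 525 and 369 CPM in SCADD livers and 443, 413 and 487 CPM in WT livers, which gave a log2 fold change of -0.02 (SE 0.17, 95% interval -0.40 to 0.35, edgeR adjusted p = 0.957). The WT range lay inside the SCADD range, and a difference beyond 0.756-fold or 1.28-fold lies outside the interval.

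Levels of different genes were compared per transcript length, in the authors' RSEM TPM. Igf1 stood first in both groups, at 423 ± 68.2 TPM in SCADD and 580 ± 39.4 TPM in WT livers (SD, n = 3 each). Igfbp2 followed at 244 ± 47.5 TPM in SCADD and 383 ± 71.2 TPM in WT, Igfbp4 at 203 ± 77.8 TPM in SCADD and 217 ± 24.9 TPM in WT, and Ghr at 125 ± 44.0 TPM in SCADD and 91.3 ± 6.60 TPM in WT. Igfals had 26.2 ± 14.9 TPM in SCADD and 22.7 ± 3.00 TPM in WT livers. In WT livers the ranges of these 5 genes did not overlap from one rank to the next. In SCADD livers those of Igfbp2 and Igfbp4 overlapped, as did those of Igfbp4 and Ghr. Below them, from Igfbp1 (7.12 ± 4.19 TPM in SCADD, 11.5 ± 4.03 TPM in WT) through Igfbp3 (4.44 ± 0.211 TPM in SCADD, 7.93 ± 2.29 TPM in WT) and Socs2 to Stat5b (3.49 ± 1.05 TPM in SCADD, 3.72 ± 1.26 TPM in WT), neighbours in the order overlapped in both groups. Cish was last at 0.357 ± 0.127 TPM in SCADD and 0.687 ± 0.904 TPM in WT. TPM has a fixed total, and the median tested gene in SCADD replicate 3 lay at -0.38 on the log2 scale relative to its mean over the libraries, so TPM levels of that library are low across genes. Mup genes took 14.8% of its TPM, against 7.37% and 8.53% in the other SCADD libraries and 3.23% to 4.16% in WT libraries.

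Ratios within a library do not depend on that total. Igf1 transcripts per Ghr transcript numbered 3.93, 2.69 and 4.02 in SCADD livers and 5.91, 6.71 and 6.45 in WT livers, by TPM. All SCADD libraries were below all WT libraries. This follows from the lower Igf1 and higher Ghr levels in CPM given above, so it is no separate finding. The effective lengths that RSEM divides by also differed between the groups. Their means were 2287 bases in SCADD and 2423 in WT for Ghr, and 1424 in SCADD and 1347 in WT for Igf1. The ratio is given as a description with no test. Of the summed TPM of the 4 binding proteins, Igfbp2 held 57.1%, 42.9% and 61.8% in SCADD livers and 64.2%, 60.9% and 59.7% in WT livers. Igfbp4 held 40.1%, 55.7% and 34.5% in SCADD livers and 33.3%, 34.9% and 37.4% in WT livers. Only in SCADD replicate 2 did Igfbp4 exceed Igfbp2, and the ranges of both shares overlapped between the groups. Igfbp1 held 0.487% to 2.37% in SCADD and 1.21% to 2.75% in WT, and Igfbp3 held 0.804% to 1.27% in SCADD and 0.804% to 1.76% in WT. Igf1 TPM over the summed binding protein TPM was 0.927 ± 0.0462 in SCADD and 0.951 ± 0.173 in WT livers (SD, n = 3 each), with overlapping ranges.

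**Figure D3:**
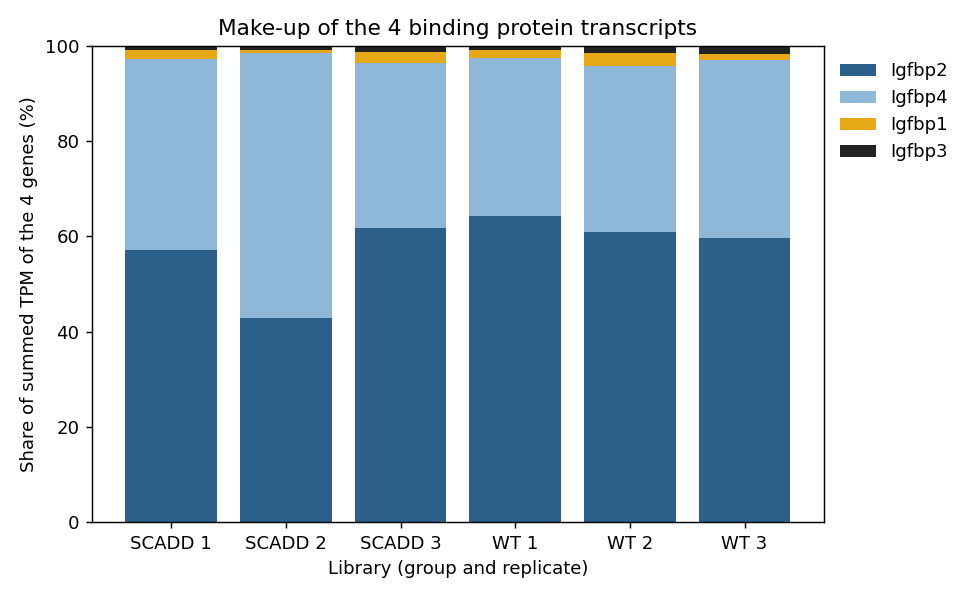
Share of each of 4 IGF binding protein genes in their summed TPM, in %, with a bar for each library, SCADD to the left of WT. Igfbp2 and Igfbp4 make up nearly all of each bar, and Igfbp4 is the larger in SCADD replicate 2 at 55.7%.

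Around the members, 22 of 28 listed genes of growth hormone receptor signalling and IGF handling were tested, and 2 rose and 0 fell in SCADD livers, where 4.22% of all tested genes rose and 2.8% fell. The median log2 fold change of the 22 was 0.19. This list and those below were chosen with earlier results of these data known, so their shares describe them and test nothing. Igf2r, the receptor that clears IGF2 and sorts lysosomal enzymes, had 21.4 ± 1.87 CPM in SCADD and 13.8 ± 1.79 CPM in WT livers (SD, n = 3 each, log2 fold change 0.63, SE 0.14, edgeR adjusted p = 0.0240). Ptpn11, which encodes the phosphatase SHP2 that acts downstream of growth factor receptors, had 50.6, 52.8 and 46.7 CPM in SCADD and 36.5, 34.5 and 32.6 CPM in WT (log2 fold change 0.53, SE 0.12, edgeR adjusted p = 0.0248). Igf2r lost its call without SCADD replicate 1 or 2 or WT replicate 2 or 3 (adjusted p 0.0566 to 0.114) and Ptpn11 without any library other than SCADD replicate 3 (0.0543 to 0.116). In the list as a whole 0 genes rose without SCADD replicate 1 or either of WT replicates 2 and 3, and 1 gene rose without SCADD replicate 2 (the exchange factor Sos1, adjusted p = 0.0308) or WT replicate 1 (Igf2r). Ptpn6, which encodes the phosphatase SHP1, had 0.52 on the log2 scale (edgeR adjusted p = 0.115) and passed as higher, of all settings run, without SCADD replicate 3 (0.67, adjusted p = 0.0198). Jak2, Stat5a and Igf1r were chosen after their values were seen. Jak2, the receptor's kinase, stood at 0.09 on the log2 scale (SE 0.12, edgeR adjusted p = 0.708), Stat5a at 0.33 (SE 0.24, adjusted p = 0.478) and the IGF1 receptor Igf1r at -0.43 (SE 0.27, adjusted p = 0.390). Igf1r was scarce, at 1.03 ± 0.120 CPM in SCADD and 1.38 ± 0.198 CPM in WT livers. Of the genes not tested, Igf2, the fetal growth factor, had 1 read in the 3 SCADD libraries and 0 reads in the 3 WT libraries, where a count of 0 allows up to 3 reads.

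Growth hormone pulses are known to set much of the sex bias of the rodent liver, so 2 lists of such genes were read beside the members. Both were chosen with earlier results of these data known, so a share above that of all genes is no evidence of enrichment. Of 15 tested male-biased genes (16 listed, Mup genes left aside), 4 fell and 1 rose, against 2.8% of all tested genes that fell and 4.22% that rose, with a median log2 fold change of -0.29. The Mup genes left aside went the other way. Together they took 7.37% to 14.8% of TPM in SCADD livers and 3.23% to 4.16% in WT livers. The counts and median of this list therefore do not describe male-biased genes as a whole. Hsd3b5, a 3-ketosteroid reductase of male liver, had 44.8 ± 9.11 CPM in SCADD and 266 ± 89.03 CPM in WT livers (SD, n = 3 each, log2 fold change -2.57, SE 0.25, edgeR adjusted p = 0.000317). Cspg5, a chondroitin sulfate proteoglycan, had 5.26 ± 2.01 CPM in SCADD and 15.8 ± 2.86 CPM in WT (log2 fold change -1.60, SE 0.26, adjusted p = 0.00640). The other falls were Selenbp2 (log2 fold change -2.80, adjusted p = 0.00207), which lost its call without SCADD replicate 3 (0.0578), and the oxysterol hydroxylase Cyp7b1 (-2.06, adjusted p = 0.0101). Cyp4a12a, a fatty acid hydroxylase, was the 1 that rose, with 726 ± 58.6 CPM in SCADD and 468 ± 10.6 CPM in WT (log2 fold change 0.63, SE 0.15, edgeR adjusted p = 0.0301). Its call was lost without any library other than SCADD replicate 3 (adjusted p 0.0558 to 0.134), without SCADD replicate 2 the fatty acid elongase gene Elovl3 passed in its place (adjusted p = 0.000849), and its near-identical copy Cyp4a12b makes its value uncertain. Gstp1, a glutathione transferase, had 162 ± 37.6 CPM in SCADD and 228 ± 47.9 CPM in WT (edgeR adjusted p = 0.181), and passed as lower, of all settings run, without SCADD replicate 2 (log2 fold change -0.70, adjusted p = 0.0411).

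Of 14 tested female-biased genes (18 listed), 2 rose and 1 fell, beside the same shares of all genes (4.22% and 2.8%), with a median log2 fold change of 0.39. Of the 14, 9 lay above 0 and 5 below. Among those above 0 were Cyp2a4, Cyp2b9 and Cyp2b13, named after their values were seen. In them only SCADD replicate 2 exceeded every WT library, at 28.4, 68.3 and 5.85 CPM. The median is therefore in part the trait of that animal. Acot3, a peroxisomal acyl-CoA thioesterase, had 131, 138 and 102 CPM in SCADD livers and 6.80, 8.35 and 5.56 CPM in WT livers (log2 fold change 4.17, SE 0.20, edgeR adjusted p = 2.32e-06). Acot3 is also a PPAR-alpha target and has close relatives beside it. Tox, which encodes an HMG-box nuclear protein, had 3.17 ± 0.485 CPM in SCADD and 0.896 ± 0.278 CPM in WT (SD, n = 3 each, log2 fold change 1.80, SE 0.28, adjusted p = 0.00366). Hao2, a peroxisomal hydroxyacid oxidase, had 8.20, 30.1 and 2.61 CPM in SCADD livers and 0.398, 0.831 and 0.113 CPM in WT livers, without overlap. It did not pass (log2 fold change 4.97, SE 1.17, edgeR adjusted p = 0.0659), but was called higher with the 1 CPM filter, DESeq2, no robust estimation and the replicate block (adjusted p 2.78e-07 to 0.0430). The number that fell was 2 without SCADD replicate 1, where the steroid hydroxylase gene Cyp17a1 also passed (adjusted p = 0.0411), and 2 without WT replicate 1, where Fmo2 did (adjusted p = 0.0278). Both lists thus held called genes in both directions.

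**Figure D4:**
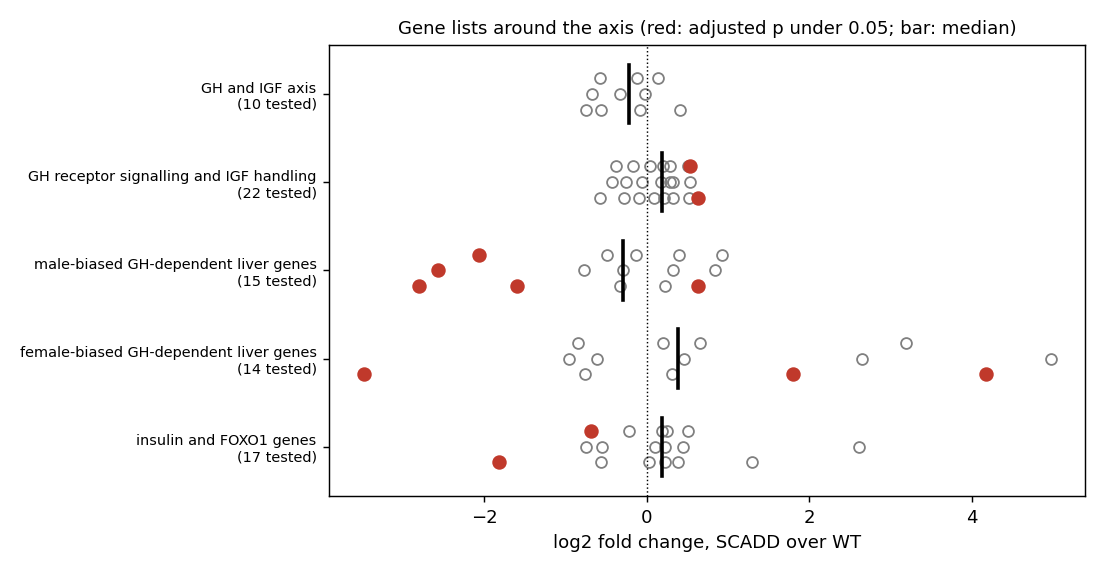
Log2 fold change, SCADD over WT, of each tested gene (points) in the axis and in 4 lists around it, with called genes filled in red and the list median as a black bar. Axis members span -0.75 to 0.41 with none called, while the male-biased list spans -2.80 to 0.93.

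Igfbp1 and Igfbp2 respond to insulin, and 17 genes of insulin signalling and of FOXO1, the factor that insulin holds out of the nucleus, were all tested. Of these, 2 fell and 0 rose, where 2.8% of all tested genes fell and 4.22% rose, and the median log2 fold change was 0.19. Ppargc1a, the fasting coactivator PGC-1alpha, had 4.65, 6.18 and 3.60 CPM in SCADD livers and 11.4, 24.7 and 15.3 CPM in WT livers (log2 fold change -1.82, SE 0.30, edgeR adjusted p = 0.00744). Sesn1, a stress-induced inhibitor of mTORC1, had 7.56 ± 0.904 CPM in SCADD and 12.2 ± 1.22 CPM in WT (SD, n = 3 each, log2 fold change -0.69, SE 0.16, adjusted p = 0.0248). Ppargc1a lost its call without SCADD replicate 3 (0.0516) and Sesn1 without SCADD replicate 1 or any WT replicate (0.0700 to 0.110). The fallen genes numbered 1 without SCADD replicate 1 or any WT replicate. Without SCADD replicate 3 they were Sesn1 and the apolipoprotein gene Apoc3 (adjusted p = 0.0419). Pdk4, the kinase that turns off pyruvate dehydrogenase, did not pass (adjusted p = 0.0788) but did so as higher without SCADD replicate 2, by DESeq2, by limma-voom and without robust estimation (0.00112 to 0.0275).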

How the data were processed

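Poly(A) RNA from frozen livers of 3 SCADD and 3 WT male mice was sequenced, 1 library per animal; the series' design text calls them biological replicates. The submitters' processing notes name STAR 2.7.6a, RSEM 1.3.3 and the build GRCm38. Which annotation was counted is not given in the sources used here. The deposited STAR tables hold raw read counts per gene. The deposited RSEM tables hold expected counts and TPM, the latter scaled by the authors' RSEM run to a fixed total per library.

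Stranded column 4, with 96.8% to 97.3% of stranded reads, was used. Rows of unmapped (13.6% to 36.6% of reads), multi-mapped (10.1% to 13.1%) and unassigned reads (1.47% to 2.17%) stayed out. Of 55487 IDs, 55227 matched GENCODE M21 (GRCm38), the source of symbols and coordinates. Genes kept by filterByExpr (minimum count 10) had TMM factors computed and went through edgeR 4.0.16 in R 4.3.3 (glmQLFit robust, glmQLFTest, group as the only term), adjusted by Benjamini-Hochberg over 13498 genes at 0.05. CPM uses TMM-scaled library sizes. SE is the log2 fold change over the square root of F, and 95% intervals use the test's degrees of freedom, both approximate. Alternatives were RLE and upper-quartile scaling, other filters, DESeq2 1.42.0, limma-voom (limma 3.58.1), no robust estimation, RSEM expected counts rounded to whole numbers, unstranded counts, a replicate block, no Mup genes, a 1.5-fold threshold and leaving out each library. The gene test was checked on simulated counts with the same spread for every gene. It called 17.2% of 58 genes set to a 1.5-fold change, 76.4% of 72 at 2-fold and 100% of 70 at 4-fold. Of its 143 calls, 8 were false. A gene that was not called may therefore still differ, above all where the change is small. Floors cover counting error only.

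Named genes are all members and the called members of each list. List genes that passed only under another setting were picked for naming with their values in view. Some genes counted in the lists are not reported here by name. The members and lists were chosen with earlier results of these data known. RefSeq promoter windows (GRCm38.p6) were searched by symbol. Protein sequences were not used here.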

Additional observations from a re-analysis of the deposited data

How the results depend on the processing

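Under the 12 settings that keep all 6 libraries, the 10 members gave 120 values, of which 113 kept direction and side of the threshold, 6 passed it and 1 changed sign, Socs2 at 0.011 with limma-voom. The 6 were Igfbp2 and Igfbp3 with DESeq2, without a filter (adjusted p 0.0201 and 0.000383) and with the replicate block, so the number of members called lower was 2 under each of these, which called 9.56%, 6.9% and 8.5% of the genes they tested, and 0 under the other 9. The 1.5-fold threshold reused the main log2 fold changes with a stricter test, so its values could neither change sign nor pass. Without robust estimation the log2 fold changes were also those of the main fit, so their direction was fixed. Leaving out 1 library gave 60 values, with 48 kept, 2 passing the threshold and 10 changing sign. The log2 fold change then ranged from -0.19 to 0.14 for Stat5b, -0.69 to 0.14 for Socs2, -1.13 to 1.12 for Cish, -0.22 to 0.42 for Igfals and -0.18 to 0.091 for Igfbp4, and 0 to 1 members were called lower.

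Deviations of samples from their group mean were correlated across genes. Samples with the same replicate number gave r of 0.0606, 0.0372 and 0.107, the last being the highest of all pairs. Those with different numbers gave r from -0.127 to 0.0612, the highest for SCADD replicate 1 with WT replicate 2. All these values are small, and they do not settle whether the numbers mark a pairing. The main fit took group as its only term. With the replicate block 1148 genes were called against 947, adjusted p was 0.0405 for Igfbp2 and 0.0164 for Igfbp3, and 4 female-biased genes rose against 2, with Hao2 and Prlr added. DESeq2, the 1 CPM filter and edgeR without robust estimation gave 3, with Hao2. Without a filter 950 genes rose and 752 fell over all tested, against 569 and 378. Upper-quartile scaling split the calls into 470 higher and 482 lower. Leaving out a library gave 240 to 909 higher and 155 to 681 lower genes. It gave 0 to 3 higher genes in the signalling list, 0 to 1 higher and 3 to 5 lower male-biased genes, 2 higher and 1 to 2 lower female-biased genes, and 0 to 1 higher and 1 to 2 lower insulin and FOXO1 genes. DESeq2 and no filter called 2 female-biased genes lower against 1. DESeq2, limma-voom, the replicate block and edgeR without robust estimation called 1 insulin and FOXO1 gene higher against 0, which was Pdk4 in the fits other than the block. The cause was not tested.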

Other observations

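Likeness was measured by the Euclidean distance between centred log2 CPM profiles over the 6 libraries. Genes with predicted, clone or pseudogene names were left out of the ranking but not of the median. The genes most like Igf1 were Atp6v1e1 (0.0687), Ccnl1 (0.0757) and Mob1a (0.0861), against a median distance of 0.772 over all tested genes. Those most like Igfbp3, the member with the smallest unadjusted p, were Spa17 (0.197), Cth (0.257) and Fbln5 (0.274), against a median of 1.29. None of the 6 passed the edgeR test, but they were picked for likeness to 2 genes that did not pass. With 6 libraries in 2 groups these distances describe profiles only.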
